A study of Astyanax mexicanus with 8 samples.

Results

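Transcript levels of p53 target genes were compared between spheroids of CFL and SFL, a pair of cell lines derived from liver of Astyanax mexicanus. This fish, the Mexican tetra, has cave-dwelling and surface-dwelling forms. The genes were chosen by name from a list of 9 (mdm2, ccng1, cdkn1a, gadd45aa, bbc3, ddb2, xpc, rrm2b and sesn3). Of these, 8 were found among the 27420 genes of the expression table, and sesn3 was not found by name and was not analysed here. Their Ensembl identifiers in the table are ENSAMXG00000034801 for mdm2, ENSAMXG00000018968 for ccng1, ENSAMXG00000034881 for cdkn1a, ENSAMXG00000039081 for gadd45aa, ENSAMXG00000035212 for bbc3, ENSAMXG00000000525 for ddb2, ENSAMXG00000043912 for xpc and ENSAMXG00000031469 for rrm2b. CFL is the cave line, with libraries titled Pachon, and SFL is the surface line. Both lines carry the genotype label WT, and cells of both aggregated freely in ultra-low-attachment wells for 28 days, with no other treatment named. Each line gave 1 polyadenylated RNA library at each of 4 seeding densities, namely 10000, 25000, 50000 and 100000 cells per well, 8 libraries in all. Values are TPM, the abundance of a gene's transcripts corrected for their length and scaled to the same total in every library, so that levels can be compared between genes. The depth behind them is unknown. Each form is represented by 1 line, so a difference belongs to these lines and not to cave or surface fish in general. With 1 library per line and density, the SD given for a line (n = 4) is the spread over its 4 densities and holds any effect of density. In these bulk samples, fewer cells of a type and less RNA per cell cannot be told apart.

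The p53 protein is a transcription factor that is stabilised when DNA is damaged or cells are otherwise stressed. Its targets halt the cell cycle, repair DNA, trigger cell death and, through mdm2, switch p53 itself off again. Vertebrate cells express many of these genes at a basal level without added damage, and no damaging agent is named for these spheroids.

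Of the 27420 genes, 13783 had a mean of at least 1 TPM over the 8 libraries and were tested, all 8 p53 targets among them. Between 17819 and 19408 genes were above 0 in a library. The liver label had little support from hepatocyte markers in CFL, and in SFL the markers were mixed. Of 27 listed hepatocyte genes only 5 were tested, all 5 lower in CFL, with ttr and tdo2a listed at 0 in all 8 libraries and hnf4a at 0.31 TPM or less. The filter admits genes that are high in 1 line only. Thus apoa1a and apoa2 passed it through SFL, with means of 3.97 and 3.13 TPM, against 0.07 and 0.015 TPM in CFL. Untested genes went both ways. In CFL fabp10a reached 2.05 TPM, against 0 in SFL, while apoba was at 0.07 TPM or less, against 0.73 to 1.64 TPM in SFL. Expressed in SFL was fgb, at 34.3 to 43.8 TPM, against 1.73 to 6.42 TPM in CFL. The marker rbp4 was also far lower in CFL (-7.82 on the log2 scale, CFL minus SFL). The summed level of the list was 7.4 to 17.3 TPM in CFL and 283 to 357 TPM in SFL. Biliary markers, led by krt8 and krt18a.1, summed to 797 to 1185 TPM in CFL and 6877 to 9435 TPM in SFL, and all 4 tested were lower in CFL. Of the 8 genes found for this list, however, 4 were under 1 TPM in every library. Among these, epcam was at 0.09 TPM or less and cldn15la at 0.05 TPM or less. Of 9 tested stellate cell and fibroblast markers, 3 were higher and 5 lower in CFL, with sums of 1195 to 3547 TPM in CFL and 948 to 1354 TPM in SFL. All 3 tested endothelial markers were lower in CFL (sums 17.3 to 33.4 TPM, against 124 to 195 TPM in SFL), with cdh5 at 0.03 TPM or less, and the 1 tested erythroid marker was higher in CFL (sums 1.74 to 5.31 TPM, against 0.40 to 0.68 TPM in SFL). The endothelial marker fli1a, under the filter and not tested, was higher in CFL (0.17 to 0.76 TPM, against 0.01 to 0.15 TPM in SFL). Leukocyte markers had no tested gene and summed to 1.39 to 3.07 TPM in CFL and 1.5 to 2.96 TPM in SFL. The part these markers have in the line differences below was not tested.

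The most abundant of the 8 targets was not the cell cycle inhibitor cdkn1a but ccng1, which encodes cyclin G1, a p53 target that feeds back on the Mdm2 and p53 pair. In CFL, ccng1 averaged 1181 ± 81.8 TPM, followed by mdm2 at 68.2 ± 8.19, gadd45aa at 68.1 ± 4.62, cdkn1a at 30.9 ± 2.59, rrm2b at 12.5 ± 4.27, ddb2 at 10.7 ± 1.66, xpc at 2.95 ± 0.81 and bbc3 at 1.22 ± 0.12 TPM (SD, n = 4). The neighbours mdm2 and gadd45aa, and likewise rrm2b and ddb2, overlapped across the CFL libraries. In SFL, ccng1 averaged 1561 ± 145 TPM, mdm2 82.9 ± 5.34, gadd45aa 49.4 ± 3.04, cdkn1a 37.1 ± 4.72, ddb2 29.1 ± 2.43, rrm2b 11.9 ± 3.82, xpc 4.71 ± 0.38 and bbc3 1.04 ± 0.11 TPM (SD, n = 4). Here mdm2 stood above gadd45aa in every library and ddb2 above rrm2b, while the ranges of cdkn1a and ddb2 overlapped slightly. In mean level, ccng1 reached or passed 99.2% of all genes tested, and bbc3 1.57%. In TPM as deposited, 6 of the 8 genes varied by less than 1.5-fold over the 4 densities in both lines. The share of all genes tested that did so is not given here. Among the 8, the exceptions were rrm2b, whose highest library was 2.02-fold above the lowest in CFL and 1.93-fold in SFL, and xpc, with 1.79-fold in CFL and 1.19-fold in SFL. This split depended on scaling. Median-of-ratios scaling sets the libraries to equal typical ratios over genes. After it, ccng1 ran from 939 to 1526 TPM and gadd45aa from 55.2 to 87.1 TPM in CFL, both more than 1.5-fold. So did cdkn1a (24.8 to 37.5 TPM), ddb2 (7.79 to 12.4 TPM) and bbc3 (0.93 to 1.46 TPM) in CFL. In SFL, ccng1 (1219 to 1921 TPM) and bbc3 (0.78 to 1.26 TPM) also varied more than 1.5-fold. In CFL, rrm2b then ran from 10.2 to 14.0 TPM and xpc from 2.27 to 3.22 TPM, both less than 1.5-fold.

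**Figure D1:**
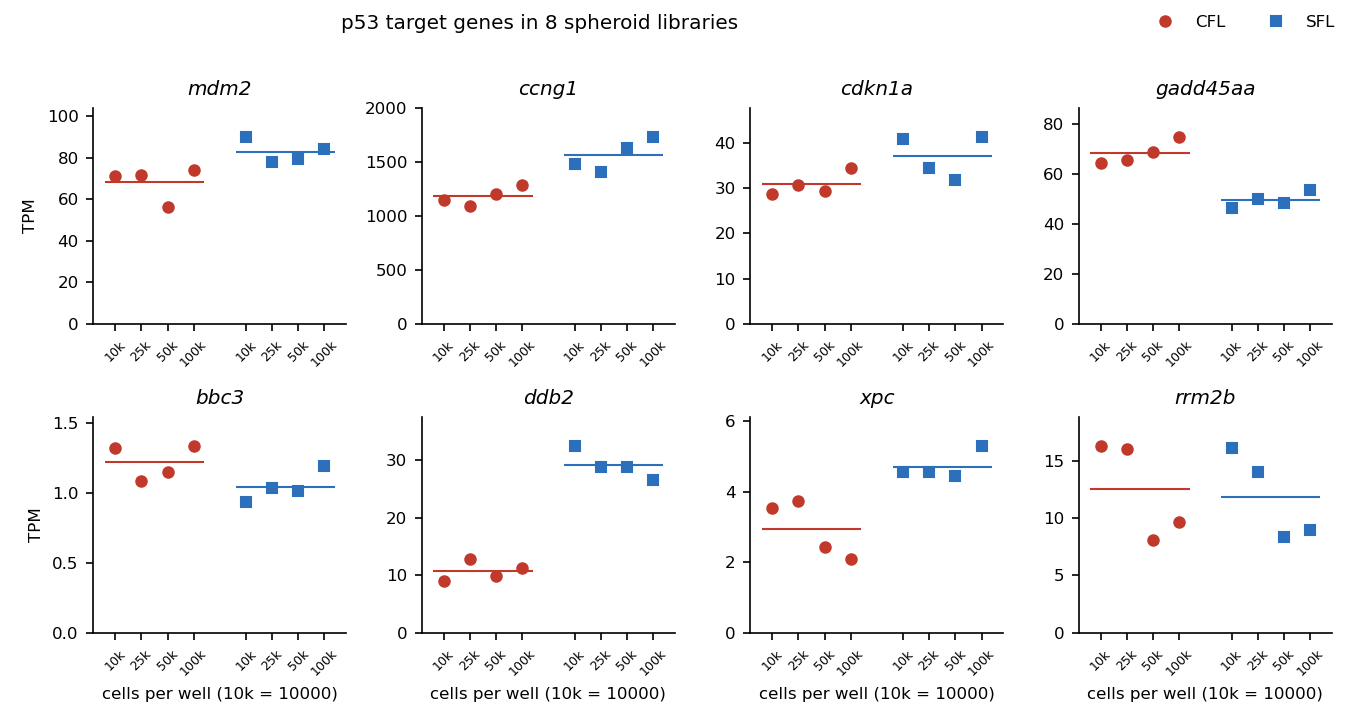
TPM (y axis, from 0) of the 8 p53 target genes in each library, by seeding density (x axis, cells per well, where 10k is 10000), with CFL as circles and SFL as squares; horizontal lines are means over the 4 densities. The ddb2 libraries of CFL (9.05 to 12.8 TPM) lie far below those of SFL (26.5 to 32.4 TPM), and rrm2b is lower at 50000 and 100000 than at 10000 and 25000 cells per well in both lines.

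The first comparison asks how the cave line differs from the surface line. The 8 targets did not move as a block: ddb2, xpc and ccng1 were lower in CFL, gadd45aa was higher, and mdm2, cdkn1a, bbc3 and rrm2b did not pass the test. The test was limma on log2(TPM + 1) with log2(density) as covariate, Benjamini-Hochberg adjustment over the 13783 genes and a threshold of 0.05, and differences are CFL minus SFL on this scale, which understates the change of genes at a few TPM. The 1 higher and 3 lower calls among 8 genes (50.0%) stand beside 58.9% of all genes tested, 27.6% higher and 31.3% lower. With density as a replicate block the calls were 1 higher and 5 lower (75.0%), beside 71.2% of all genes, 33.5% higher and 37.7% lower. In TPM as deposited, the 4 CFL and 4 SFL libraries did not overlap for 5 of the 8 genes (62.5%), against 49.0% of all genes. Of these 5, CFL was above for 1 and below for 4, against 22.2% and 26.8% of all genes. After median-of-ratios scaling the ranges of mdm2, ccng1 and gadd45aa overlapped, and those of ddb2 and xpc stayed apart. At each density, scaled CFL values remained below those of SFL for mdm2 and ccng1 and above them for gadd45aa. The median difference of the 8 was -0.27, against -0.04 over all genes tested. The sign was the same at all 4 densities for 7 of the 8, all but rrm2b. Any gene whose lines do not overlap, 49.0% of all, also keeps 1 sign. The full share of all genes that do so is not given here.

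Among the genes that act back on p53, mdm2 encodes the ubiquitin ligase that marks p53 for degradation. It measured 71.2, 71.6, 56.1 and 73.9 TPM in CFL at 10000, 25000, 50000 and 100000 cells per well, against 89.9, 78.1, 79.5 and 84.3 TPM in SFL. In TPM as deposited, all 4 CFL libraries were below all 4 SFL libraries, and the CFL library at 50000 was the lowest of all 8. The difference of -0.28 (SE 0.11) had an adjusted p of 0.0514 and was not called. With density as a block, which pairs the lines at each density, the adjusted p was 0.0160. It was 0.0494 when only genes with a mean of at least 5 TPM were tested and 0.0318 without the CFL library at 100000 (difference -0.36). With either scaling mdm2 was not called. The difference was -0.24 by median of ratios (adjusted p = 0.0719) and -0.10 by quantile normalization (adjusted p = 0.355). After median-of-ratios scaling the ranges of the lines overlapped, at 61.3 to 80.3 TPM in CFL and 67.7 to 93.8 TPM in SFL. At each density CFL stayed below SFL. The CFL library at 50000 then had 71.2 TPM, above those at 10000 and 25000.

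Levels of ccng1 were 1145, 1092, 1202 and 1283 TPM in CFL and 1482, 1406, 1628 and 1729 TPM in SFL, in order of density. As deposited, the highest CFL library was thus below the lowest SFL library, and the CFL mean was 0.756 of the SFL mean. The difference was -0.40 (SE 0.07, adjusted p = 0.00147, lower in CFL at 4 of 4 densities). After median-of-ratios scaling it was -0.36 with an adjusted p of 0.0759 and was not called. The scaled ranges overlapped, at 939 to 1526 TPM in CFL and 1219 to 1921 TPM in SFL, with CFL still lower at each density.

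Of the cell cycle arrest genes, cdkn1a encodes p21, an inhibitor of cyclin-dependent kinases and the classical arrest target of p53. It had 28.8, 30.7, 29.4 and 34.6 TPM in CFL and 41.0, 34.4, 31.9 and 41.3 TPM in SFL. CFL was lower at each density, but the ranges of the lines overlapped. The difference of -0.25 (SE 0.12) had an adjusted p of 0.0946, which was 0.0316 with density as a block and 0.0407 without the SFL library at 50000 (difference -0.33). Without single libraries the difference ranged between -0.33 and -0.16. It was -0.21 by median of ratios (adjusted p = 0.15) and -0.11 by quantile normalization (adjusted p = 0.412), and neither was called.

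The gene gadd45aa encodes a small stress-induced protein that binds PCNA and cell cycle kinases. It was the only one of the 8 that was higher in CFL by the test. Its levels were 64.1, 65.3, 68.6 and 74.5 TPM in CFL and 46.1, 49.9, 48.2 and 53.3 TPM in SFL, so that as deposited every CFL library was above every SFL library. The difference was 0.46 (SE 0.07, adjusted p = 0.000887), a 1.38-fold higher mean in CFL. It was between 0.38 and 0.50 at the single densities. After median-of-ratios scaling the ranges overlapped slightly, at 55.2 to 87.1 TPM in CFL and 38.5 to 56.9 TPM in SFL. CFL was still higher at each density.

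The death gene bbc3, which encodes the Bcl2-binding protein Puma, was close to the filter of 1 TPM in both lines. It had 1.32, 1.08, 1.15 and 1.33 TPM in CFL and 0.93, 1.03, 1.01 and 1.19 TPM in SFL, with overlapping ranges. The difference was 0.12 (SE 0.12, adjusted p = 0.429).

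Repair genes held both the largest line difference among the 8 and the smallest. Ddb2 recognises ultraviolet damage in chromatin and hands it to Xpc, which starts global genome nucleotide excision repair. Transcripts of ddb2 measured 9.05, 12.8, 9.78 and 11.2 TPM in CFL and 32.4, 28.8, 28.7 and 26.5 TPM in SFL. Every CFL library lay far below every SFL library, and the CFL mean was 0.368 of the SFL mean. The difference was -1.37 (SE 0.13, adjusted p = 3.78e-05), and it was -1.73, -1.11, -1.46 and -1.17 from the lowest to the highest density. In size, it exceeded the line difference of 79.2% of all genes tested.

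For xpc the libraries measured 3.54, 3.74, 2.44 and 2.09 TPM in CFL and 4.56, 4.56, 4.44 and 5.28 TPM in SFL. No library of CFL reached the lowest of SFL, and the gap was widest at 50000 and 100000 cells per well. The difference was -0.55 (SE 0.17, adjusted p = 0.0194, lower in CFL at 4 of 4 densities). It was not called without the CFL library at 100000 (-0.45, adjusted p = 0.0663) or without the SFL library at 100000 (-0.43, adjusted p = 0.0678).

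The gene rrm2b encodes the p53-inducible small subunit of ribonucleotide reductase, which supplies deoxyribonucleotides for repair. It had 16.3, 16.1, 8.05 and 9.65 TPM in CFL and 16.1, 14.0, 8.35 and 8.98 TPM in SFL. The lines lay together and the densities apart. The line difference was 0.06 (SE 0.17, adjusted p = 0.787).

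**Figure D2:**
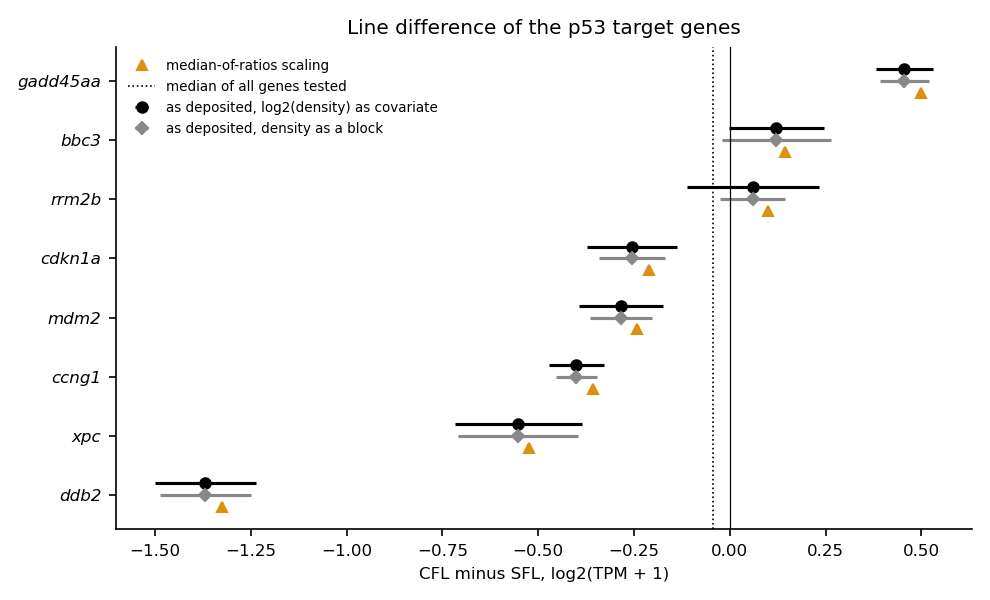
CFL minus SFL in log2(TPM + 1) (x axis) for each p53 target (rows), with bars of 1 SE, from the fit with log2(density) (black circles) and with density as a block (grey diamonds), and after median-of-ratios scaling (triangles, no bar). The dotted line is the median of all genes tested, -0.04; ddb2 at -1.37 and gadd45aa at 0.46 lie at the ends.

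The second comparison asks what changed with the number of cells seeded, taking 50000 and 100000 cells per well as large and 10000 and 25000 as small, with line as covariate. Here rrm2b was the p53 target that fell in large spheroids, and ccng1 rose slightly. In TPM as deposited, 48.0% of all genes tested were called, 3.25% higher and 44.8% lower in large spheroids, and the median of all genes was -0.30 on the log2 scale. The 448 genes called higher became 292 without the CFL library at 10000 and 292 without that at 25000. Of the 8 targets 1 was higher and 1 lower (25.0% called), and their median was -0.03 (0.31 by median of ratios and 0.29 by quantile normalization). The split over all genes depended on scaling. Of all calls, 6.77% were higher in large spheroids in TPM as deposited. The share was 53.2% once libraries were scaled by median of ratios (median of all genes 0.04) and 52.5% with quantile normalization (median 0.06). Scaled values are therefore given beside the seeding results. With a slope on log2(density) in place of the 2 classes, limma called 0 genes, although 5026 had an unadjusted p under 0.05, and the smallest adjusted p of any gene was 0.0888.

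Mean rrm2b was 8.85 TPM in large and 16.2 TPM in small CFL spheroids, and 8.67 TPM in large and 15.1 TPM in small SFL spheroids. All 4 large libraries, at 8.05 to 9.65 TPM, were below all 4 small ones, at 14.0 to 16.3 TPM. The change was -0.77 (SE 0.10, adjusted p = 0.00057), beside the median of -0.30 for all genes. Scaling left it at -0.38 by median of ratios (adjusted p = 0.00446) and -0.35 by quantile normalization (adjusted p = 0.0079). Within CFL it was -0.81 (adjusted p = 0.00642), where 36.5% of all genes were called (2.43% higher and 34.0% lower), and within SFL -0.73 (adjusted p = 0.015), where 27.0% were (1.15% higher and 25.8% lower). The SFL change was not called by median of ratios (-0.37, adjusted p = 0.0528) or quantile normalization (-0.31, adjusted p = 0.0893), with no filter on low genes (adjusted p = 0.0674), or without the SFL library at 10000 (adjusted p = 0.0968), 25000 (0.0529) or 50000 (0.0901). The CFL change was lost without the CFL library at 10000 (adjusted p = 0.0538). With density as 4 separate levels, rrm2b passed an F test (adjusted p = 0.00296). The next smallest adjusted p among the targets in that test was 0.0918, for ccng1. The share of all genes passing the F test is not given here.

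For ccng1, large spheroids averaged 1243 TPM and small ones 1119 TPM in CFL, and 1679 and 1444 TPM in SFL. The change of 0.18 (SE 0.06) had an adjusted p of 0.0266. It was not called without the CFL library at 25000 (adjusted p = 0.0769) or 100000 (0.0506) or the SFL library at 25000 (0.0827) or 100000 (0.0706), after quantile normalization (0.175), or without a mean-variance trend (0.0913). After median-of-ratios scaling it was 0.60 (adjusted p = 0.00102).

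The other 6 targets did not pass in TPM as deposited. The changes were 0.11 for gadd45aa (adjusted p = 0.235), 0.06 for bbc3 (0.732), 0.03 for cdkn1a (0.866), -0.09 for ddb2 (0.552), -0.09 for mdm2 (0.472) and -0.22 for xpc (0.239). All 6 lay above the median of all genes. After median-of-ratios scaling gadd45aa was 0.52 (adjusted p = 0.00121) and cdkn1a 0.43 (adjusted p = 0.00419) higher in large spheroids, and both were called after quantile normalization too (0.38 and 0.37, adjusted p = 0.00275 and 0.00937), as was bbc3 (0.41, adjusted p = 0.0239). The signs of mdm2, ddb2 and xpc turned positive under both scalings (0.32, 0.30 and 0.11 by median of ratios, and 0.15, 0.32 and 0.27 by quantile). Of these, mdm2 was called higher by median of ratios (adjusted p = 0.00668), and none of the 3 was called by quantile normalization. The targets called higher and lower numbered 4 and 1 by median of ratios, beside 23.7% and 20.8% of all genes (44.5% called), and 3 and 1 by quantile normalization, beside 21.9% and 19.8% (41.7% called).

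**Figure D3:**
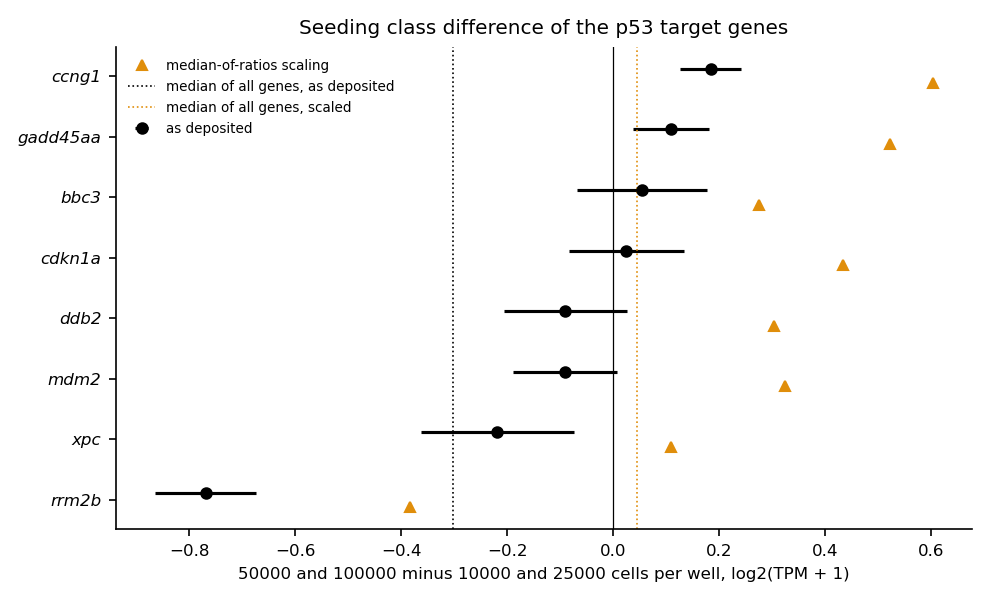
Large (50000 and 100000 cells per well) minus small (10000 and 25000) in log2(TPM + 1) (x axis) for each p53 target (rows), over both lines: TPM as deposited with bars of 1 SE (circles) and median-of-ratios scaled values (triangles, no bar). Dotted lines are the medians of all genes tested, -0.30 as deposited and 0.04 scaled; rrm2b lies below the median of all genes on both scales.

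Whether the seeding effect differed between the lines was tested by the interaction of line and class. None of the 8 targets passed, and limma called 0 of 13783 genes, with 1132 genes (8.21%) at an unadjusted p under 0.05 and a smallest adjusted p of 0.105. The gene nearest to a difference among the 8 was xpc, with an interaction of -0.58 (SE 0.22, unadjusted p = 0.0308, adjusted p = 0.536). In CFL, xpc averaged 2.27 TPM in large and 3.64 TPM in small spheroids (-0.51, adjusted p = 0.0366), and in SFL 4.86 TPM in large and 4.56 TPM in small spheroids (0.07, adjusted p = 0.768). The CFL change was lost with either scaling (-0.17, adjusted p = 0.417 by median of ratios; 0.0061, adjusted p = 0.987 by quantile), with no filter (adjusted p = 0.0561) and without any single CFL library (adjusted p = 0.129, 0.162, 0.0694 and 0.104 without that at 10000, 25000, 50000 and 100000) or the SFL library at 10000 (0.0584) or 25000 (0.0585).

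The p53 partner mdm4, which binds and restrains p53 without degrading it by itself, did not pass in the line comparison but fell in large spheroids. It had 14.1, 12.7, 4.59 and 7.68 TPM in CFL and 9.38, 8.96, 3.55 and 5.36 TPM in SFL, higher in CFL at each density. The line difference was 0.44 (SE 0.28, adjusted p = 0.205), and its adjusted p was 0.00378 with density as a block, 0.0427 after quantile normalization and 0.0301 without the CFL library at 50000 (difference 0.66). By median of ratios the line difference was 0.47 (adjusted p = 0.0535) and was not called. The seeding change was -0.98 (adjusted p = 0.00144), and -0.62 by median of ratios (adjusted p = 0.0048).

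The kinases that signal damage to p53 did not pass in the line comparison: atm differed by -0.05, atr by 0.12, chek1 by 0.05 and chek2 by -0.13. Of these, atm, atr and chek1 were lower in large spheroids as deposited (-0.96, -0.56 and -0.64), and of the 3 only atm passed after both scalings (-0.66 and -0.50). For chek2 the change was -0.0049 as deposited and not called, and it was called higher in large spheroids after both scalings (0.33 and 0.49). The phosphatase gene ppm1d, whose product removes the activating phosphates from p53 and which is itself a p53 target in mammals, has 2 copies among the names. The copy ppm1db was lower in CFL (-0.42, adjusted p = 0.0184), a call lost without the SFL library at 10000 (adjusted p = 0.071) or 100000 (0.069). The other, ppm1da, singled out after its values were seen, had 2.64, 2.25, 1.12 and 1.90 TPM in CFL and was listed at 0 in all 4 SFL libraries. Its mean was under the filter, and it was not tested.

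Over the list of 29 p53 relatives and regulators, 27 names were in the table and 24 genes were tested. In CFL 4 were higher and 4 lower, beside 27.6% and 31.3% of all genes, and the median difference was -0.03 (0.0081 by median of ratios). The higher genes numbered 7 with the replicate block or quantile normalization and 2 with the filter at 5 TPM. The lower genes numbered 2 without the CFL library at 10000 or the SFL library at 25000, and 1 without the SFL library at 10000 or 100000. The relatives tp63 and tp73 were at 0.11 TPM or less in every library. In large spheroids 16 of 24 were lower and 0 higher, beside 44.8% and 3.25% of all genes, with a median of -0.57. By median of ratios 7 were lower and 1 higher, beside 20.8% and 23.7% of all genes. The largest falls were those of hipk2, a kinase that activates p53 toward cell death (-1.35), tp53bp2a, which encodes a p53-binding protein of the ASPP family (-1.21), and ing2, a chromatin reader that cooperates with p53 (-1.08). All 3 were also called after both scalings.

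**Figure D4:**
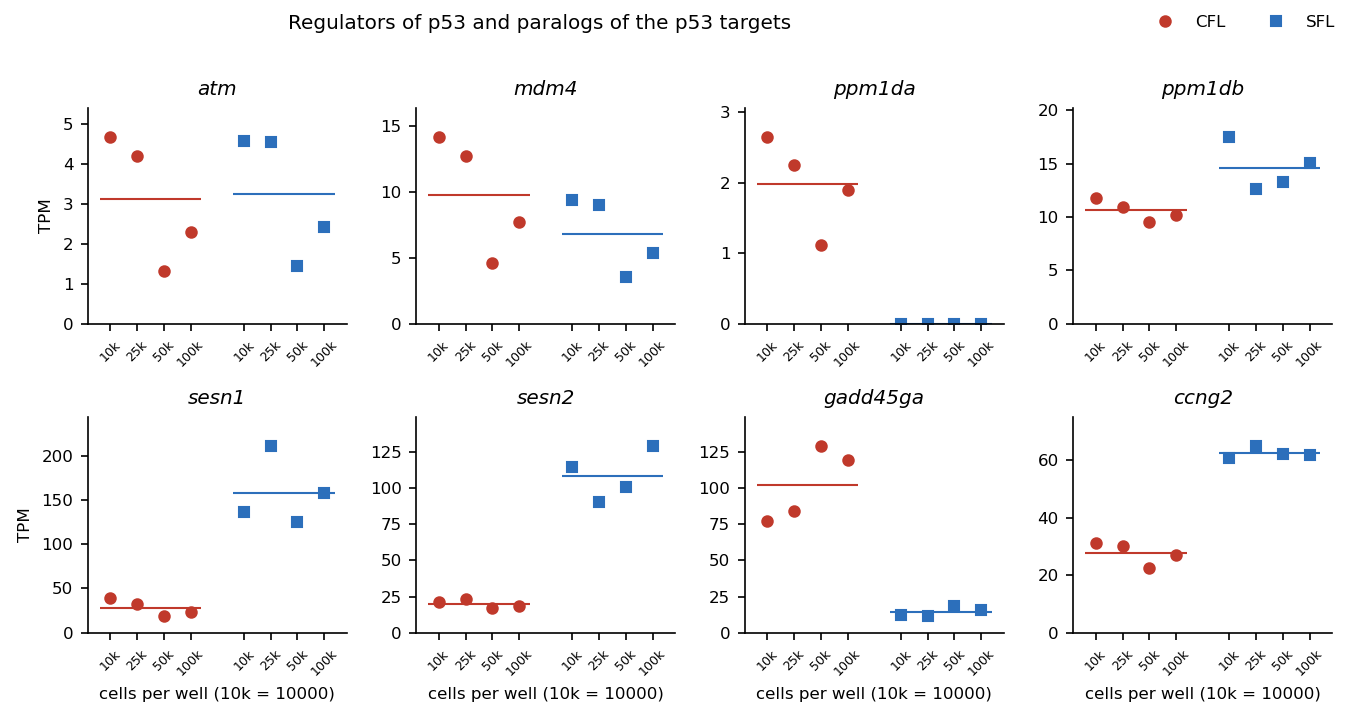
TPM (y axes, from 0) of atm, mdm4, the 2 ppm1d copies and paralogs of the p53 targets in each library, by seeding density (x axis, cells per well, where 10k is 10000), with CFL as circles and SFL as squares; horizontal lines are means over the 4 densities. The sestrin genes sesn1 and sesn2 and the cyclin gene ccng2 are lower in every CFL library than in any SFL library, and gadd45ga is higher.

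Among paralogs of the 9 genes, gadd45ga was far higher in CFL, and sesn1 and sesn2 were far lower. Of 14 tested paralogs and partners from a list of 20, 6 were higher and 5 lower in CFL, beside 27.6% and 31.3% of all genes. The count of higher genes was 3 without the CFL library at 100000 or without the SFL library at 10000. In the gadd45 family, gadd45ga was higher in CFL like gadd45aa. It had 77.6, 84.5, 129 and 119 TPM in CFL and 12.5, 11.6, 18.1 and 15.6 TPM in SFL, a 7.09-fold higher mean in CFL (2.73, SE 0.14, adjusted p = 1.05e-06). The other gadd45a copy, gadd45ab, was also higher in CFL (17.1 ± 2.16 TPM, against 9.84 ± 2.24 TPM in SFL, SD, n = 4, difference 0.75), while gadd45ba was at 81.2 ± 8.39 TPM in CFL and 83.1 ± 12.5 TPM in SFL (SD, n = 4) and did not pass (-0.03, adjusted p = 0.828, and 0.016 and 0.17 after the scalings). Both gadd45ga (0.53) and gadd45ba (0.29) were higher in large spheroids, also after both scalings.

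Sestrins are stress proteins that restrain mTORC1, and 2 of the family were found in the table. Transcripts of sesn1, a p53 target in mammals, measured 38.8, 32.7, 18.5 and 23.7 TPM in CFL and 137, 211, 125 and 157 TPM in SFL. Those of sesn2 measured 21.0, 23.4, 17.2 and 18.4 TPM in CFL and 115, 90.2, 101 and 129 TPM in SFL. For both genes every CFL library was below every SFL library, with CFL means of 0.18 and 0.184 of the SFL means (-2.45 and -2.38, adjusted p = 2.79e-05 and 2.42e-06). The cyclin G2 gene ccng2 was lower in CFL like ccng1, and more so (27.5 ± 3.9 TPM, against 62.3 ± 1.7 TPM in SFL, SD, n = 4, difference -1.16). The p27 copies, relatives of p21, went opposite ways. The copy cdkn1bb was lower in CFL (2.59 ± 0.98 TPM, against 7.65 ± 1.70 TPM in SFL, SD, n = 4, difference -1.29). The more abundant copy cdkn1ba, named after its values were seen, was higher in CFL (26.4 ± 2.94 TPM, against 15.9 ± 2.45 TPM in SFL, SD, n = 4, difference 0.71, adjusted p = 0.0019). Its CFL libraries all lay above those of SFL in TPM as deposited. The replicative small subunit gene rrm2, counterpart of rrm2b, was higher in CFL at 0.49 (adjusted p = 0.0283). That call was lost with no filter (adjusted p = 0.0717) and without the CFL library at 25000 (0.0733) or 100000 (0.071) or the SFL library at 10000 (0.0888), 50000 (0.0587) or 100000 (0.0928).

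Of 73 further genes described as p53 targets in mammals or zebrafish, 54 names were in the table and 46 genes were tested. In CFL 13 were higher and 15 lower, close to the 27.6% and 31.3% of all genes, with a median of -0.20. The largest rises in CFL were in tp53i11a (2.60) and tp53i11b (1.91), copies of a p53-inducible gene, cyfip2, which encodes an actin regulator (1.90), ddit4, an inhibitor of mTORC1 (1.76), and tigara, a fructose bisphosphatase that diverts glycolysis (1.68). Among genes averaging at least 5 TPM in the higher line, the largest falls were in rps27l (-3.18), sesn1 and sesn2 above, fancc of the Fanconi anaemia repair pathway (-2.17) and trim32, a ubiquitin ligase (-1.31). Below that level, dram2a (-1.86) and the pantothenate kinase gene pank1a (-1.56) were also lower in CFL. They averaged 0.015 and 0.68 TPM in CFL and 2.76 and 4.03 TPM in SFL, and were named after their values were seen. The most abundant of them, rps27l, had 528 ± 48.3 TPM in CFL and 4861 ± 1050 TPM in SFL (SD, n = 4). It is a near copy of the ribosomal protein gene rps27, and how reads were shared between them is not known, so its level is uncertain. In large spheroids 3 of the 46 were higher and 13 lower, beside 3.25% and 44.8% of all genes, with a median of -0.23. By median of ratios 14 were higher and 7 lower, beside 23.7% and 20.8% of all genes, and the median was 0.15 (0.17 by quantile normalization). Those named by size were gpx1b, a glutathione peroxidase (0.62), pank1b, a pantothenate kinase (-1.56), the death gene baxa (-1.12, for the tested of 2 genes of that name) and cdip1, a p53-dependent death gene (-1.04), and the 4 kept their direction and call after both scalings.

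The damage sensing and checkpoint list had 25 tested genes. In CFL 6 were higher and 4 lower, beside 27.6% and 31.3% of all genes, with a median of -0.01 (0.02 by median of ratios). The count of lower genes was 1 without the CFL library at 10000 or 50000 or the SFL library at 10000 or 25000, and 2 without the SFL library at 100000, with quantile normalization or with no density term. Higher in CFL were CDC25B, a phosphatase that drives entry into mitosis (1.59), and atrip, the partner of Atr (1.36). In large spheroids 15 of 25 were lower and 0 higher, beside 44.8% and 3.25% of all genes. By median of ratios 3 were lower and 5 higher, beside 20.8% and 23.7% of all genes. The largest falls were in atm (-0.96), bard1 (-0.70) and CLSPN (-0.67), the last 2 of which were not called after quantile normalization (adjusted p = 0.092 and 0.208).

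Of 32 tested partners of ddb2 and xpc in nucleotide excision repair, 8 were higher and 10 lower in CFL, close to the 27.6% and 31.3% of all genes, with a median of -0.11. The helicase gene ercc3 of transcription factor TFIIH (19.6 ± 1.92 TPM in CFL, 41.3 ± 4.91 TPM in SFL, SD, n = 4, difference -1.03) and ercc8, which recruits repair to stalled RNA polymerase (5.25 ± 0.68 TPM in CFL, 12.9 ± 0.98 TPM in SFL, SD, n = 4, difference -1.16), were lower in CFL like ddb2. The ligase gene lig1, which seals the repaired strand and also acts in replication, was higher in CFL (1.44). In large spheroids 9 were lower and 1 higher, beside 44.8% and 3.25% of all genes. By median of ratios 4 were lower and 11 higher, beside 20.8% and 23.7% of all genes. The largest falls were in rad23aa, whose product stabilises Xpc (-1.36), 1 of several genes named gtf2h4 (-1.02) and ercc6 (-0.95), all called after both scalings. Another tested gtf2h4 gene was called higher in large spheroids after both scalings. Its changes were 0.31 by median of ratios (adjusted p = 0.0126) and 0.31 by quantile normalization (adjusted p = 0.0158).

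Genes of dividing cells were mostly higher in CFL. Of 23 tested, 17 were higher and 1, pcna, was lower (2 with the replicate block), beside 27.6% and 31.3% of all genes. Their median was 0.66. The count of higher genes was 11 without the CFL library at 100000 or without the SFL library at 10000, and with no filter. The largest rises were in top2a (2.92), cdk1 (1.36), ccna2 (1.22), mcm2 (1.05) and aurka (1.04). In large spheroids 18 were lower and 0 higher, beside 44.8% and 3.25% of all genes. By median of ratios 8 were lower and 0 higher, beside 20.8% and 23.7%. The changes were led by rrm1 (-1.03), mcm3 (-0.96) and top2a (-0.93). The part these genes have in the values of the p53 targets was not tested.

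**Figure D5:**
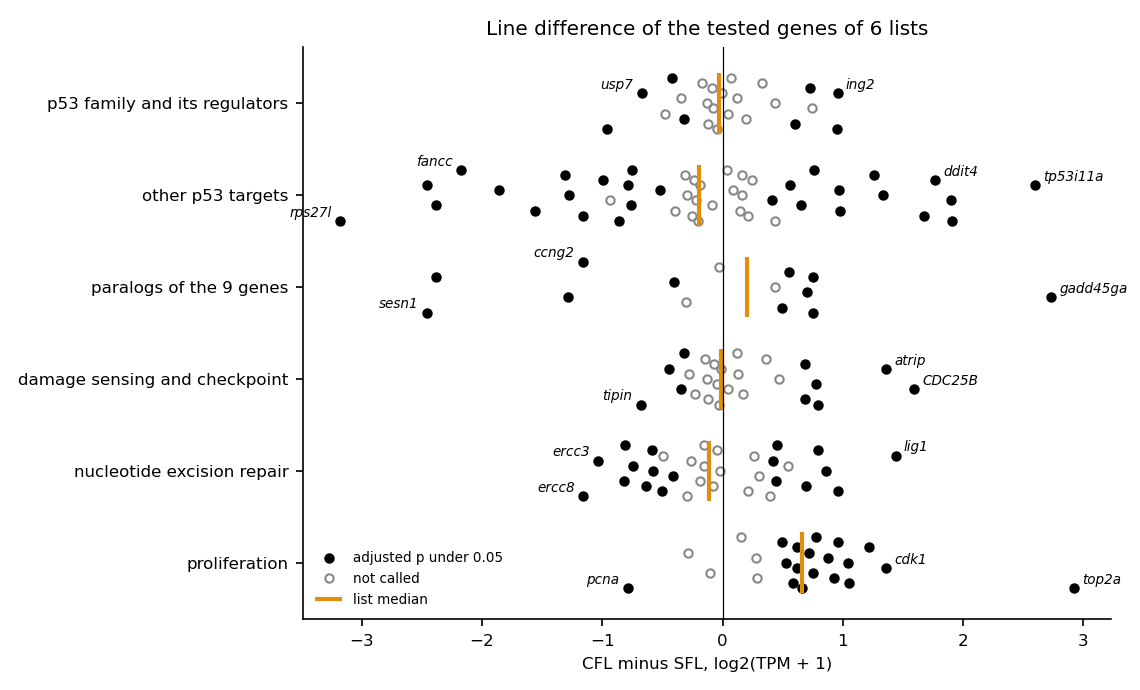
CFL minus SFL in log2(TPM + 1) (x axis) for every tested gene of 6 lists (rows); filled points passed at an adjusted p under 0.05, open points did not, and vertical bars are list medians. The p53 lists spread to both sides of 0, with medians of -0.03 and -0.20, and the proliferation list lies mostly to the right, with a median of 0.66.

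After subtracting line means, the p53 targets varied both with and against each other over the 8 libraries. Pairwise Pearson correlations of log2(TPM + 1) among the 8 ran between -0.80, for ccng1 with rrm2b, and 0.70, for gadd45aa with ccng1, and that of mdm2 with cdkn1a was 0.55. These are descriptions over 8 libraries that share 4 densities and the scaling of each library. Genes without a standard symbol were left out of the ranking that follows. Among the other tested genes, those most like mdm2 by the same measure were gtf3c3 (0.97), srpk3 (0.97) and MOCOS (0.96). Those most like cdkn1a were slc13a2 (0.97), macroh2a1 (0.97) and gtf2h5 (0.96). None of these genes is another of the 8.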

How the data were processed

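Per the labels, RNA of the 8 spheroid libraries was prepared with a stranded mRNA kit and read as single reads of 75 bases. The authors deposited 1 table of TPM per gene and library; STAR 2.7.3a and RSEM 1.3.0 are named in the submitters' processing notes, while the genome build, annotation and strand setting are not given in the sources used here. TPM keeps no depth, so the precision of a single value is unknown.

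Genes averaging at least 1 TPM (13783) entered the fits, on log2 of TPM plus a pseudocount of 1, made by limma 3.58.1 under R 4.3.3 (eBayes with trend, all 8 libraries, Benjamini-Hochberg, threshold 0.05). The line fit had line and log2(density), the seeding fit line and class, and the interaction fit both with their product. P-values measure the spread between these libraries, which nothing says are separate cultures. The same density pairs a CFL with an SFL library: deviations from the line means correlated at 0.51, 0.49, 0.64 and 0.31 from 10000 to 100000 cells per well, so the line fit was repeated with density as a replicate block. The fits were tested on simulated data.

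The 9 genes, the gene lists and the tests were chosen with earlier results of these data known. Lists were described by counts and medians and not tested. Beyond the 8 targets and 10 set regulators and paralogs, genes were named if they passed with an absolute line difference of at least 1 and 5 TPM in the higher line (at most 5 per list and direction), or were the 3 largest seeding changes of at least 1.5-fold per list and direction. Some genes stand in more than 1 list, and some genes of these pathways are not reported here. The alternatives were another pseudocount (0.1), filter (none, 5 TPM), scaling, density term or variance trend, and leaving out each library.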

Additional observations from a re-analysis of the deposited data

Results flagged for a closer look

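In 4 of 114 groups of 4 libraries checked (57 named genes in 2 lines), 1 library stood apart from the other 3 of its line by Dixon's criterion at 95%, which chance alone gives in about 1 of 20 groups. The level of mdm2 was 56.05 TPM in the CFL library at 50000 cells per well, with 71.18 TPM as the next lowest in CFL. For xpc, the SFL library at 100000 had 5.28 TPM, with 4.56 TPM as the next highest in SFL. The CFL library at 25000 was highest for rrm2 at 32.0 TPM (next 24.29 TPM). For dram2a the CFL library at 50000 was listed at 0 TPM, with 0.02 TPM in the other 3 of CFL. No named gene moved in opposite directions in the lines with every library taking part (0 of 57).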

How the results depend on the processing

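The line calls of gadd45aa and ddb2 held under all 16 alternatives run. Over the 8 targets, 1 higher and 3 lower in CFL became 1 and 5 with the replicate block, and 1 and between 2 and 4 without single libraries. Among the 8 targets, the set regulators and paralogs and the genes named for their line difference, the block changed only the line calls of mdm2, cdkn1a and mdm4. Genes named only for seeding were not part of this check. Among these, CLSPN, for example, passed the line test with the block (adjusted p = 0.0039) and not without it (0.072). Genes called over the whole table ranged between 7079 and 8364 in the line comparison and between 5416 and 6545 in the seeding comparison (292 to 401 higher) without single libraries. The seeding comparison lost all calls with a slope (0 genes, 0 targets higher, 0 lower). Its 1 target higher became 4 by median of ratios, 3 by quantile, 0 without trend and 0 to 1 without single libraries. Interaction calls were 110 with no filter and 0 to 5 without single libraries.

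Of the values whose sign turned, only the change of xpc within CFL had been called. For seeding these were mdm2 (0.32 by median of ratios, 0.15 by quantile), ddb2 (0.30, 0.32), xpc (0.11, 0.27; within CFL 0.0061 by quantile) and chek2 (0.33, 0.49; slope 0.0091). For line it was gadd45ba (0.016, 0.17). For the interaction these were bbc3 (0.053 by quantile), and mdm2 (0.0079) and rrm2b (0.0047) against log2(density). Without single libraries, line differences ranged between -0.036 and 0.18 for rrm2b, -0.23 and 0.15 for atm, -0.0098 and 0.20 for atr, -0.047 and 0.15 for chek1, and -0.070 and 0.044 for gadd45ba. Seeding changes ranged between -0.034 and 0.11 for cdkn1a, -0.041 and 0.038 for chek2, and -0.031 and 0.18 for xpc within SFL. Interactions ranged between -0.31 and 0.083 for mdm2, -0.035 and 0.33 for cdkn1a, -0.0077 and 0.13 for gadd45aa, -0.14 and 0.022 for bbc3, -0.13 and 0.33 for ddb2, and -0.19 and 0.045 for rrm2b. The cause was not tested. TPM keeps no depth, which limits what can be said of bbc3 and other genes near 1 TPM.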
